A study of Capra hircus with 10 samples.

Results

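Molecular chaperones are proteins that help other proteins fold, and the genes described here are those of the HSP70, HSP60/HSP10, small heat shock, J-domain and CCT families in the goat ovary. They were chosen by symbol: protein-coding genes named HSPA, HSPB, HSPD, HSPE or HSPH, DNAJA, DNAJB or DNAJC, CCT2 to CCT8, or TCP1. The rule took 78 of the 20587 gene symbols in the transcript table, with 137 transcripts. RNA was sequenced from whole ovaries of Anhui white goats, 5 luteal and 5 follicular, with no treatment named and no other group. The ovaries came from a slaughterhouse, and each library is 1 ovary. The labels number the ovaries but say nothing about the animals, so the p-values measure the spread between these 10 ovaries.

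In the follicular phase the ovary carries growing follicles, and in the luteal phase a corpus luteum, the gland that makes progesterone. A chaperone of the HSP70 family binds a stretch of unfolded protein and releases it on a cycle of ATP, which J-domain proteins start and nucleotide exchange factors complete. HSP60 with its lid HSP10 in mitochondria, and the CCT ring in the cytosol, enclose a protein while it folds, and each compartment (cytosol, endoplasmic reticulum, mitochondria) has its own set of these machines.

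Of the 78 genes, 54 were placed in the cytosol (nucleus and endosomes included), 13 in the endoplasmic reticulum (ER) and 10 in mitochondria, and CCT8L2 was placed in none. A gene was tested when its FPKM (fragments scaled to transcript length and to all mapped fragments, summed over the transcripts of a gene) was at least 0.1 in at least 5 ovaries. This kept 69 genes, and 0 of them passed through the values of 1 phase only. The 9 below the limit were DNAJB3, DNAJB7, DNAJB8, DNAJB13, DNAJC5B, DNAJC5G, HSPB3, HSPB9 and CCT8L2, several of them genes known from testis or muscle. The highest value among these 9 was 0.215 FPKM, for DNAJB13. All 4 of the symbols HSPA1A, HSPA1B, HSPA1L and DNAJC25 were unmatched, although RefSeq synonyms place HSPA1A under HSP70.1 and HSPA1L under LOC102177850.

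The phases are compared below as luteal minus follicular on log2(FPKM + 0.1), a scale that understates changes of low genes, with limma across all 15359 genes tested and Benjamini-Hochberg adjustment. A gene with an adjusted p under 0.05 is called higher or lower in the luteal phase. Of the 69 chaperone genes 30 were called, or 43.5%, beside 43.7% of all genes tested, so the share called among the members was close to the background. The 9 called higher stand beside 15.9% of all genes, and the 21 called lower beside 27.8%. At an adjusted p under 0.01, limma called 16 of the 69, beside 26.2% of all genes. The median log2 fold change was -0.16 for the chaperone genes and -0.14 for all genes. The split of the calls depended on the scaling of the ovaries. It was 12 higher and 8 lower after each ovary was shifted to a common median (median of the members -0.075), 12 and 12 in TPM (-0.062), and 11 and 24 after quantile normalization. Of the calls over all genes 36.34% were higher as reported, and 48.78%, 52.49% and 41.77% in these 3 settings. Values of 7 genes were higher in every luteal than in every follicular ovary (11.2% of all genes), and 11 were higher in every follicular ovary (17.2% of all genes).

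Counts and medians were also taken by compartment and, further below, by family and for lists of related genes. Over all genes tested 15.9% were called higher and 27.8% lower, with a median of -0.14, and each count stands beside these shares. In the cytosol 5 of 46 tested genes were higher and 19 lower in the luteal phase, with a median of -0.23, and 8 and 12 were lower after the median shift and in TPM. In the ER 2 of 13 were higher and 2 lower, with a median of 0.08, and 4 higher and 0 lower after the shift to a common median (median 0.166) and in TPM (0.18). With 1 ovary left out the ER median ran from 0.0374 (without luteal replicate 2) to 0.152 (without luteal replicate 3). In mitochondria limma called 2 of 10 higher and 0 lower (1 was lower at an unadjusted p under 0.05), and without follicular replicate 2 it called 4 higher and 2 lower. The mitochondrial median was -0.09 and turned to 0.00469 in TPM. With 1 ovary left out it ran from -0.127 (without follicular replicate 3) to -0.0175 (without luteal replicate 3). Members share the same 10 ovaries and are not replicates, so these medians are given without a test. Together the chaperone genes held 0.869% to 1.08% of the summed mRNA FPKM of a luteal ovary and 0.832% to 1.19% of a follicular one, ranges that overlap.

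**Figure D1:**
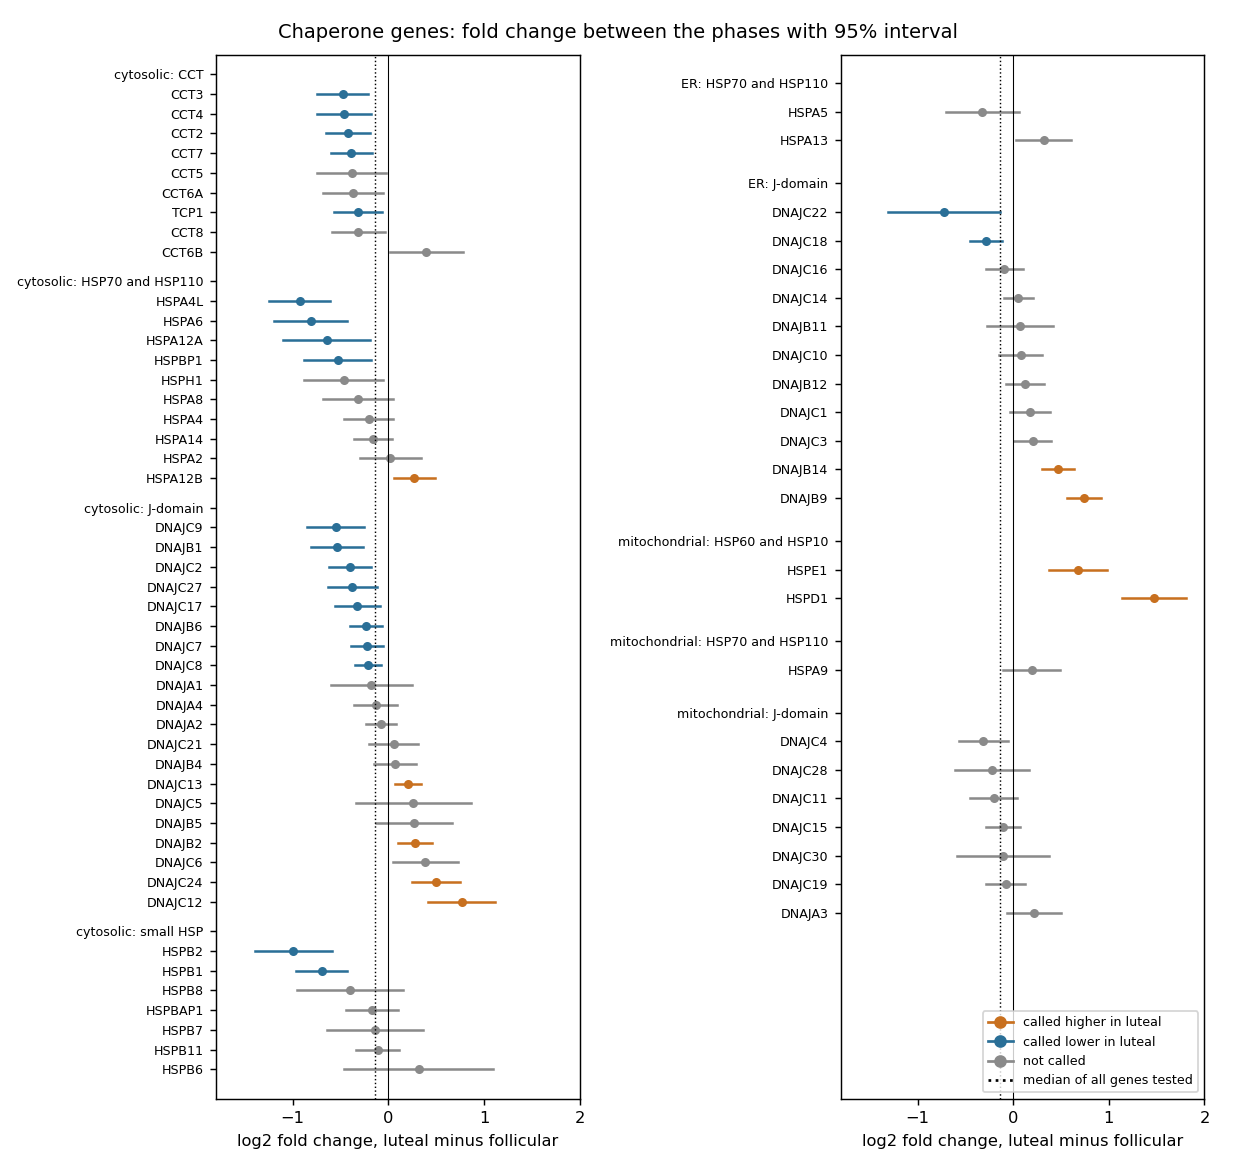
Log2 fold change (luteal minus follicular) of the 69 tested chaperone genes, grouped by compartment and family, with 95% intervals from the limma fit. The dotted line is the median of all genes tested (-0.14), and HSPD1 lies furthest to the right. The 5 CCT genes called lower are not called after a shift of the ovaries to a common median, where the median of the 8 ring subunits is -0.30 against -0.39.

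In mitochondria, HSP60 and its lid were both higher in the luteal phase. HSPD1, which encodes HSP60, had FPKM of 325, 456, 329, 451 and 414 in the luteal ovaries. In the follicular ovaries it had 144, 184, 122, 156 and 109. Every luteal ovary lay above every follicular one, and the lowest luteal value was well above the highest follicular value. The log2 fold change was 1.47 (SE 0.15, 95% interval 1.14 to 1.81, limma adjusted p = 3.3e-05), the largest of the 69 genes, and it was called in each of the 10 fits that left out 1 ovary. HSPE1, which encodes HSP10, had FPKM of 430, 568, 383, 512 and 439 in the luteal phase. The follicular ovaries had 269, 373, 252, 316 and 252. The phases of HSPE1 did not overlap either, but the lowest luteal ovary and the highest follicular ovary were close. Its log2 fold change was 0.68 (SE 0.14, limma adjusted p = 0.00248), smaller than that of its partner.

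HSP60 and HSP10 act as one machine, so their ratio was compared within each ovary. HSPD1 stood at 0.755 to 0.942 of HSPE1 in the luteal ovaries and at 0.432 to 0.534 in the follicular ovaries. The log2 ratio was higher in the luteal phase by 0.80 (two-sided exact permutation p = 0.00794, also after adjustment over the 4 ratios tested), which is the smallest p that 5 ovaries against 5 allow. The 4 ratios were chosen after the values were seen. In RefSeq the annotated spans of HSPD1 and HSPE1 overlap, and processed copies of both genes are common in mammalian genomes, so reads may have been split between them and such copies. Each gene had 2 tested transcripts, and all 4 were called higher. The main HSPD1 transcript held 95.7% of its FPKM in the luteal phase and rose by 1.46 on the log2 scale (limma adjusted p = 0.000219 over all transcripts), and the main HSPE1 transcript rose by 0.56 (limma adjusted p = 0.0179). The minor HSPE1 transcript went from 29.0 ± 2.39 FPKM in the follicular phase to 79.1 ± 23.4 in the luteal phase (SD, n = 5 each).

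The mitochondrial HSP70, HSPA9 (mortalin), pulls imported proteins into the matrix. Its FPKM was 92.4, 101, 86.5, 96.8 and 95.1 in the luteal ovaries and 80.8, 122, 70.1, 80.0 and 68.8 in the follicular ovaries. Of the follicular ovaries, 4 lay below every luteal ovary, and replicate 2 lay above all 10. The difference of 0.19 was not called (95% interval -0.11 to 0.49, limma adjusted p = 0.269). Without follicular replicate 2 it was 0.34 and called (limma adjusted p = 0.00482). The ratio of HSPD1 to HSPA9 ran from 3.52 to 4.66 in luteal ovaries and from 1.51 to 1.95 in follicular ovaries (log2 difference 1.28, two-sided exact permutation p = 0.00794). This ratio too was chosen after the values were seen.

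Of the 7 mitochondrial J-domain genes limma called 0, and 1 of them, DNAJC4, was lower at an unadjusted p under 0.05. At an adjusted p of 0.0503 in limma, with a difference of -0.31, DNAJC4 passed under 4 other settings with all ovaries (a pseudocount of 0.01, a minimum FPKM of 0.5, no trend and the replicate block). DNAJA3 (Tid1), the J-domain partner of HSPA9 in the matrix, had 20.1, 21.9, 14.3, 18.4 and 19.6 FPKM in the luteal phase. Follicular values were 15.2, 20.9, 14.7, 15.2 and 15.1. The groups of DNAJA3 overlapped through luteal replicate 3 and follicular replicate 2, and its difference of 0.22 passed only without one or the other (limma adjusted p = 0.193 with all ovaries, 0.0408 without follicular replicate 2 and 0.0444 without luteal replicate 3). DNAJC15 and DNAJC19, which belong to the motor of the import channel, differed by -0.11 and -0.08, with 95% intervals of -0.29 to 0.07 and -0.28 to 0.12. DNAJC11, a protein of the inner membrane folds, differed by -0.20 and DNAJC30 by -0.11, neither of them called. DNAJC28 differed by -0.22 and passed without follicular replicate 2 (limma adjusted p = 0.0247).

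Among 10 listed partners of these chaperones, 4 were called higher and 1 lower, with 6 higher after the shift to a common median and without follicular replicate 2, and 7 in TPM. LONP1, the matrix protease that removes misfolded proteins, had 34.8, 38.9, 34.8, 39.6 and 43.9 FPKM in the luteal phase. Its follicular values were 22.7, 23.7, 16.8, 18.8 and 17.2. The LONP1 values did not overlap, and they differed by 0.96 (limma adjusted p = 7.82e-05). GRPEL1, a nucleotide exchange factor of HSPA9, was higher by 0.69 (limma adjusted p = 0.00271), while its paralog GRPEL2 was lower, at -0.36 (limma adjusted p = 0.00441). YME1L1, a protease of the inner membrane, was higher by 0.31. CLPB, a disaggregase, was higher by 0.38 and called in 3 of the 10 fits with 1 ovary left out, where its adjusted p reached 0.0835. TRAP1, the mitochondrial HSP90, was at 14.4 ± 1.25 FPKM in luteal ovaries and 17.1 ± 3.45 in follicular ovaries (SD, n = 5 each), a difference of -0.23 that was not called.

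**Figure D2:**
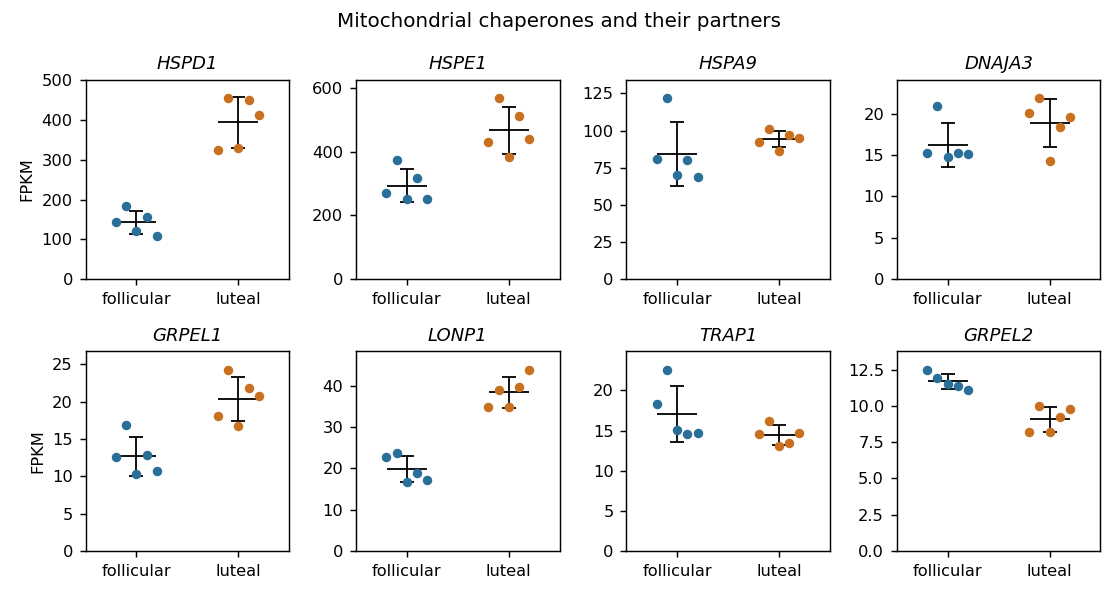
FPKM of mitochondrial chaperones (HSPD1, HSPE1, HSPA9, DNAJA3) and of related mitochondrial genes in each of the 5 follicular and 5 luteal ovaries, with bars for the mean and SD. HSPD1, HSPE1 and LONP1 separate the phases, while in HSPA9 the follicular ovary at 122 FPKM lies above all luteal ovaries.

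In the ER neither HSP70 gene was called, and 4 of 11 J-domain genes were, 2 in each direction. HSPA5 (BiP), the HSP70 of the ER, had FPKM of 385, 406, 311, 322 and 328 in the luteal ovaries and 409, 685, 375, 457 and 330 in the follicular ovaries. Follicular replicate 2 stood far above the rest and the groups overlapped. The difference was -0.33 (95% interval -0.71 to 0.06, limma adjusted p = 0.149, but 0.0426 after quantile normalization), and without follicular replicate 2 it was -0.16 (0.281). HSPA13, a second HSP70 of the ER, had 58.5, 57.1, 56.8, 55.3 and 60.9 FPKM in the luteal phase. The follicular ovaries had 48.9, 66.2, 38.3, 43.5 and 38.9. Follicular replicate 2 was again the highest, and the other 4 follicular ovaries lay below every luteal ovary. Its difference of 0.32 had an adjusted p of 0.067 with limma and of 0.00136 without that ovary, and it was called after the shift to a common median (0.0456) and in TPM (0.0211).

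DNAJB9 (ERdj4), a J-domain protein that hands misfolded proteins to degradation, had 30.4, 34.1, 35.1, 37.6 and 35.1 FPKM in the luteal phase. Follicular values were 19.7, 23.4, 19.9, 21.3 and 18.6. The groups were apart and narrow, and the difference of 0.74 (SE 0.08, limma adjusted p = 4.4e-05) was called in all 10 fits that left out an ovary. DNAJB14, a J-domain protein of the ER membrane, had 24.5, 28.7, 24.2, 28.6 and 28.4 FPKM in the luteal phase against 18.9, 20.1, 20.2, 20.1 and 17.5 in the follicular phase. Its groups did not overlap either, with a difference of 0.47 (limma adjusted p = 0.000656). DNAJB12, its closest relative, differed by 0.12 and was not called (95% interval -0.07 to 0.32).

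The 2 ER genes that were lower, DNAJC18 and DNAJC22, differed by -0.29 (limma adjusted p = 0.0105) and -0.72 (limma adjusted p = 0.0461). Both calls were lost after the shift to a common median and in TPM. The differences there were -0.20 and -0.19 for DNAJC18 and -0.64 and -0.73 for DNAJC22. DNAJC22 was low throughout, at 0.299 ± 0.133 FPKM in luteal ovaries and 0.553 ± 0.202 in follicular ovaries (SD, n = 5 each). It was called in 3 of the 10 fits with 1 ovary left out, and without follicular replicate 1 its limma adjusted p was 0.109. Other ER J-domain genes were not called. DNAJB11 (ERdj3) differed by 0.07, DNAJC10 (ERdj5, a disulfide reductase) by 0.08, DNAJC1 by 0.18 and DNAJC3 (P58IPK) by 0.21. The membrane proteins DNAJC14 and DNAJC16 differed by 0.06 and -0.09. DNAJC3 passed without follicular replicate 2 (limma adjusted p = 0.0334) and in TPM (0.0166), and DNAJC1 after the shift to a common median (0.0337).

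**Figure D3:**
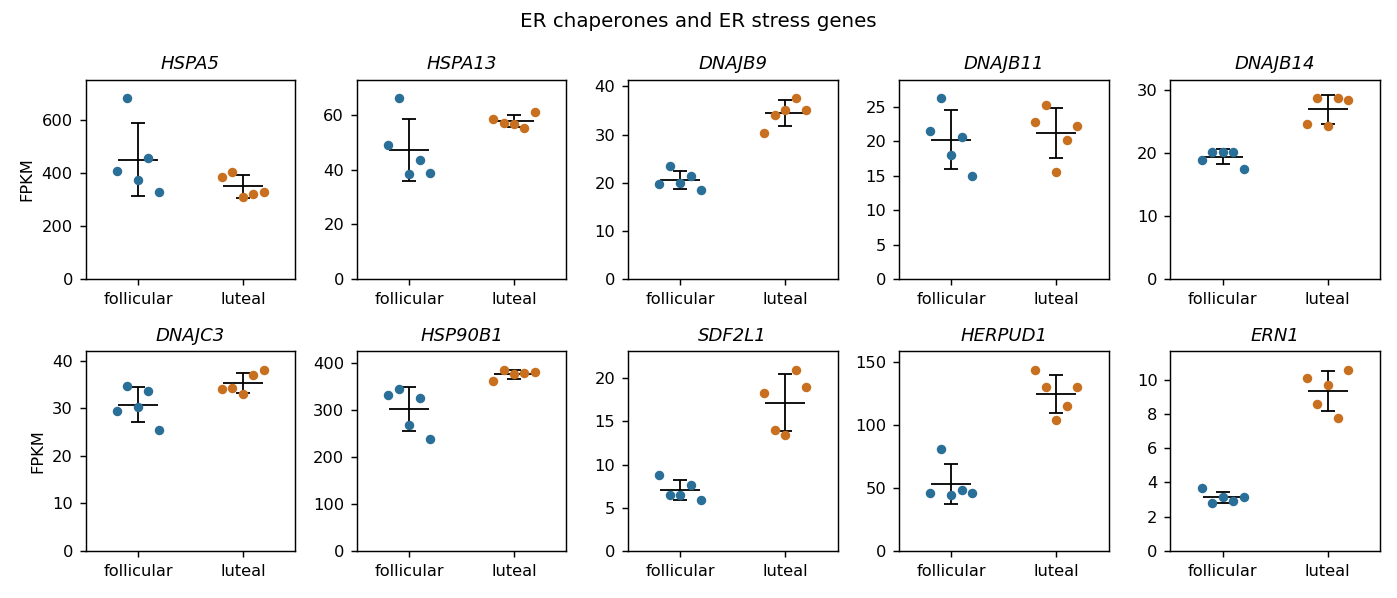
FPKM of ER chaperones and related ER genes in each of the 5 follicular and 5 luteal ovaries, with bars for the mean and SD. DNAJB9 and DNAJB14 separate the phases, whereas in HSPA5 the phases overlap and the highest of the 10 values (685 FPKM) is follicular.

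Of 22 other genes of ER folding and quality control, 5 were called higher in the luteal phase and 1 lower, with a median of 0.08 that ran from 0.00069 after quantile normalization to 0.175 in TPM, and was 0.0288 without follicular replicate 5. SDF2L1, which binds BiP with ERdj3, was higher by 1.26 (17.2 ± 3.31 against 7.07 ± 1.17 FPKM, SD, n = 5 each, limma adjusted p = 8.48e-05). HERPUD1, a part of the degradation channel, was higher by 1.26 as well (limma adjusted p = 0.000139). TXNDC5 and EDEM1, a disulfide isomerase and a lectin of glycoprotein degradation, were higher by 0.64 and 0.71. HSP90B1 (GRP94), the ER HSP90, had FPKM between 360 and 385 in luteal ovaries and between 238 and 344 in follicular ovaries, and was higher by 0.33 (limma adjusted p = 0.024, but 0.0599 without follicular replicate 3, and 0.0985 with a difference of 0.22 after quantile normalization). SIL1, the exchange factor of BiP, was lower, at -0.43 (limma adjusted p = 0.00659). Within an ovary HSP90B1 stood at 0.936 to 1.21 of HSPA5 in luteal ovaries and at 0.502 to 0.812 in follicular ovaries (log2 difference 0.66, two-sided exact permutation p = 0.00794). This is another ratio chosen after the values were seen. HYOU1, CALR and PDIA4 differed by -0.23, -0.04 and -0.02 and were not called, and the sign of CALR and PDIA4 turned after the shift to a common median and in TPM.

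Among 9 regulators of the ER stress response, 1 was called higher and 3 lower, but 2 and 2 after the median shift, 2 and 1 in TPM, and 3 and 2 without follicular replicate 2. ERN1 (IRE1), the stress sensor that splices XBP1 mRNA, rose from 3.65, 2.79, 3.13, 2.94 and 3.13 FPKM in the follicular ovaries to 10.1, 8.60, 9.69, 7.76 and 10.6 in the luteal ovaries. All luteal values of ERN1 were above all follicular values, and the difference was 1.55 (limma adjusted p = 2.57e-06). DDIT3 (CHOP) and PPP1R15A (GADD34), which act downstream in the same response, were lower, at -0.57 and -0.52, and PPP1R15A was called in only 2 of the 10 fits that left out an ovary, with adjusted p up to 0.101 in limma, and its difference was -0.32 without follicular replicate 5. XBP1 itself differed by 0.10 and was not called.

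The cytosolic HSP70 system held the most abundant chaperone and several of the largest falls. HSPA8 (HSC70), the constitutive HSP70, had FPKM of 1080, 1310, 866, 1150 and 1100 in the luteal ovaries and 1300, 1650, 1260, 1730 and 991 in the follicular ovaries, the highest mean of the 69 genes. The groups overlapped, and the difference of -0.32 was not called (limma adjusted p = 0.14, 95% interval -0.68 to 0.05). The difference itself was 0.00422 after quantile normalization, but -0.23 after the shift to a common median and -0.22 in TPM, not called in any of them. The gene was called lower without follicular replicate 5 (limma adjusted p = 0.0438).

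HSPA6, an HSP70 known as strictly heat inducible, had 23.3, 11.9, 14.1, 18.2 and 20.7 FPKM in the luteal phase. Its follicular values were 36.3, 33.3, 25.3, 26.7 and 30.6. Every follicular ovary lay above every luteal one, with a difference of -0.81 (limma adjusted p = 0.00353). HSPA4L, an HSP110 that acts as exchange factor of HSP70, had 3.40, 3.63, 3.45, 3.88 and 4.42 FPKM in the luteal phase against 8.51, 6.78, 6.35, 9.36 and 5.61 in the follicular phase. These groups did not overlap either, and at -0.93 (limma adjusted p = 0.000536) the fall was the largest of the HSP70 and HSP110 genes. Its relatives HSPA4 and HSPH1 differed by -0.21 and -0.47 and were not called, but both passed without follicular replicate 5 (limma adjusted p = 0.0238 and 0.00836), and HSPH1 also after quantile normalization (0.0323).

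HSPA1A, the main inducible HSP70, is outside the rule under its table symbol HSP70.1. It had 184, 99.4, 102, 98.3 and 125 FPKM in the luteal phase against 244, 152, 177, 183 and 191 in the follicular phase, a difference of -0.66 (limma adjusted p = 0.0115). Luteal replicate 1 fell among the follicular ovaries. Its annotated span overlaps that of LOC102177850 (HSPA1L), which was lower, at -0.48 (limma adjusted p = 0.0324, but 0.0812 after the shift to a common median), and coding sequences of HSPA1-type genes and HSPA6 are similar, so their reads may have been shared. LOC102177850 was also not called after quantile normalization (0.0797), in TPM (0.0995) and in 5 of the 10 fits with 1 ovary left out, where HSP70.1 was called in all.

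HSPA2, known best from the testis, was at 11.8 ± 1.93 FPKM in luteal ovaries and 11.7 ± 2.13 in follicular ovaries (SD, n = 5 each), and its difference of 0.02 changed sign when single ovaries were left out. HSPA14, an HSP70 of the ribosome, differed by -0.16 and was not called. HSPBP1, an exchange factor, was lower, at -0.53 (limma adjusted p = 0.0189), and this call was lost under the shift to a common median and under quantile normalization. The atypical HSP70 genes HSPA12A and HSPA12B went opposite ways, by -0.64 (limma adjusted p = 0.0269) and 0.27 (limma adjusted p = 0.0407). The first lost its call in 5 and the second in 7 of the 10 fits with 1 ovary left out, where adjusted p reached 0.062 without luteal replicate 2 and 0.0896 without luteal replicate 5. HSPA12B is known from endothelium, and of 8 endothelial markers 7 were higher in the luteal phase, with none at 0 and a summed FPKM of 262.64 to 335.1 against 151.94 to 183.28 in the follicular phase. Their part in the result was not tested. In a whole ovary, fewer cells of a type and less RNA per cell cannot be told apart.

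Of 20 tested cytosolic J-domain genes, 4 were higher and 8 lower, with a median of -0.10. The split was 5 and 3 after the shift to a common median, with a median of -0.019, and 4 and 3 in TPM, with a median of -0.0058. Without follicular replicate 2 the median was -0.054, and 5 were lower without follicular replicate 4, luteal replicate 2 or luteal replicate 3. DNAJB1 (HSP40), the main stress-induced partner of HSP70, had 63.7, 51.7, 50.1, 69.9 and 71.2 FPKM in the luteal phase. The follicular ovaries had 102, 93.9, 72.2, 86.0 and 89.5. The groups of DNAJB1 came within about 1 FPKM of each other without overlapping, and the difference was -0.54 (limma adjusted p = 0.00482). DNAJC9, a histone chaperone, and DNAJC2, which sits on the ribosome, were lower, at -0.55 and -0.40, and DNAJC2 had a limma adjusted p of 0.0564 after the shift. DNAJB6, an inhibitor of aggregation, was lower, at -0.23 (limma adjusted p = 0.0286), DNAJC7, which works between HSP70 and HSP90, at -0.23 (limma adjusted p = 0.0332), and DNAJC17 and DNAJC8, which act in splicing, at -0.32 and -0.21. DNAJC27 was lower, at -0.38. After the shift to a common median DNAJC8 had a limma adjusted p of 0.198. Calls of DNAJB6, DNAJC7, DNAJC17 and DNAJC27 were each lost in 3 or more fits that left out an ovary, with limma adjusted p up to 0.0772.

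DNAJC12, a co-chaperone of the aromatic amino acid hydroxylases, had 7.59, 8.69, 6.76, 11.7 and 9.73 FPKM in the luteal phase against 5.08, 4.17, 4.79, 5.09 and 6.61 in the follicular phase. Its groups were apart, though the highest follicular and the lowest luteal ovary nearly met, and the difference of 0.77 (limma adjusted p = 0.00284) was the largest rise in the cytosol. DNAJC24, needed to make diphthamide on elongation factor 2, was higher by 0.50 (26.5 ± 3.38 against 18.8 ± 2.84 FPKM, SD, n = 5 each, limma adjusted p = 0.00541). DNAJC13, an endosomal protein, and DNAJB2, a co-chaperone that guides proteins to the proteasome, were higher by 0.20 and 0.28. DNAJA1, the most abundant J-domain gene, had 163, 194, 136, 202 and 189 FPKM in luteal ovaries and 170, 262, 222, 246 and 126 in follicular ovaries. The lowest and the highest DNAJA1 values were both follicular, and its difference of -0.18 was not called (95% interval -0.60 to 0.24), nor at -0.34 without follicular replicate 5 or at -0.08 without follicular replicate 2. Its relatives DNAJA2, DNAJA4 and DNAJB4 differed by -0.07, -0.13 and 0.07, and DNAJC21, which acts in ribosome assembly, by 0.05. DNAJB5 differed by 0.27, and the synaptic and clathrin co-chaperones DNAJC5 and DNAJC6 by 0.26 and 0.39, the last with an adjusted p of 0.064 in limma. With 1 ovary left out the difference of DNAJC5 ran from 0.105 to 0.462. DNAJC6 passed after quantile normalization (0.0186), after the median shift (0.0234), with a pseudocount of 1 and without trend.

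Small heat shock proteins hold unfolded proteins without ATP. HSPB1 (HSP27) had 113, 79.6, 130, 111 and 104 FPKM in the luteal phase. Follicular values were 188, 151, 196, 165 and 166. All follicular ovaries lay above all luteal ovaries, with a difference of -0.70 (limma adjusted p = 0.00111). HSPB2, a muscle small heat shock gene, had 0.879, 0.596, 0.651, 0.838 and 0.429 FPKM in luteal ovaries and 1.41, 1.23, 1.45, 1.39 and 1.61 in follicular ovaries. The phases did not overlap, and -0.99 (limma adjusted p = 0.00146) was the largest fall of the 69 genes.

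CRYAB (alpha B-crystallin), the direct neighbour of HSPB2 in the RefSeq annotation and a small heat shock gene outside the naming rule, was lower, at -0.80 (limma adjusted p = 0.00245). HSPB1, HSPB2 and CRYAB are known from muscle. Of 10 smooth muscle markers 9 were lower in the luteal phase, with none at 0 and a summed FPKM of 693.84 to 1269.19 against 1521 to 1918.7 in the follicular phase, and their part in the result was not tested. The other 5 tested genes of this family were not called by limma, and HSPB6 went the other way, at 0.32, as the only positive difference of the 7. HSPB6 ranged from 0.676 to 2.84 FPKM in luteal ovaries and from 0.918 to 1.5 in follicular ovaries. HSPB8, a partner of BAG3 in autophagy, ranged from 2.04 to 4.39 and from 2.53 to 5.71, and differed by -0.40. HSPB7 differed by -0.14 (-0.344 to -0.00232 with 1 ovary left out). HSPBAP1, a binding protein of HSPB1, differed by -0.17, and HSPB11, named as a small heat shock gene but known from intraflagellar transport, by -0.11.

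**Figure D4:**
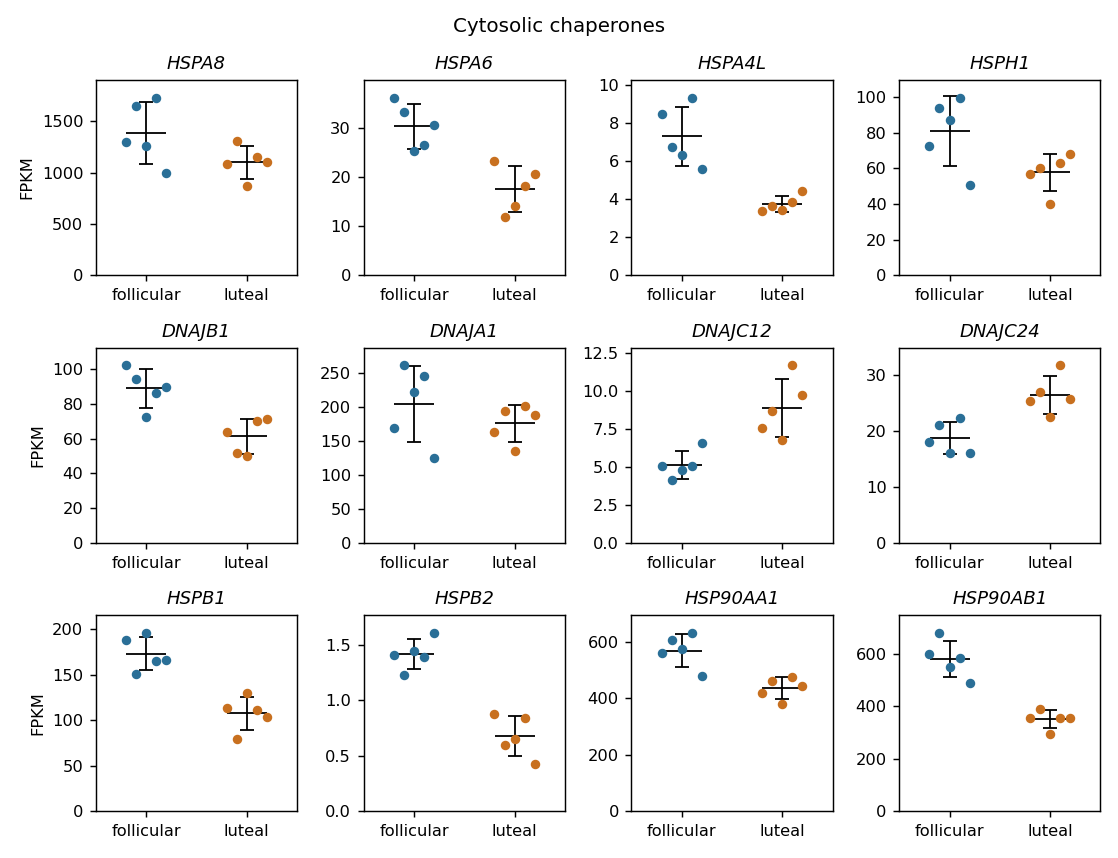
FPKM of cytosolic HSP70, J-domain and small heat shock genes, and of HSP90AA1 and HSP90AB1 from outside the naming rule, in each of the 5 follicular and 5 luteal ovaries. Bars give the mean and SD. HSPA6, HSPA4L, HSPB1, HSPB2, DNAJB1, HSP90AA1 and HSP90AB1 are higher in every follicular than in every luteal ovary, and HSPA8 overlaps.

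The CCT chaperonin is a double ring of 8 different subunits that folds actin and tubulin. All 8 ring subunits (CCT6B, a testis form of CCT6A, left out) had a negative fold change, with a median of -0.39. Of them limma called 5 lower (62.5%, beside 27.8% of all genes). CCT3 differed by -0.48 (153 ± 19.8 against 213 ± 35.3 FPKM, SD, n = 5 each, limma adjusted p = 0.00894) and CCT4 by -0.46 (limma adjusted p = 0.013). CCT2 had 106, 123, 86.5, 111 and 106 FPKM in luteal ovaries and 131, 163, 135, 157 and 125 in follicular ovaries. The CCT2 groups did not overlap, but the closest values were 123 and 125 FPKM, and the difference was -0.42 (limma adjusted p = 0.00832). CCT7 differed by -0.39 (limma adjusted p = 0.00947). TCP1 (CCT1) had 115, 125, 90.6, 116 and 107 FPKM in the luteal phase against 132, 166, 125, 154 and 114 in the follicular phase. The TCP1 groups overlapped, and its difference of -0.32 (limma adjusted p = 0.0449) was called in 3 of the 10 fits with 1 ovary left out, with an adjusted p of 0.1 without follicular replicate 4.

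CCT5, CCT6A and CCT8 differed by -0.38, -0.37 and -0.31, with adjusted p from limma of 0.0772, 0.0549 and 0.0638. The sign of all 8 was kept under each scaling, but the count called lower was not. It was 0 after the shift to a common median, 4 in TPM and 8 after quantile normalization. The median fold change of the ring was -0.30, -0.29 and -0.48 in these settings. CCT6B, at 1.44 ± 0.243 FPKM in luteal ovaries and 1.07 ± 0.230 in follicular ovaries (SD, n = 5 each), differed by 0.40 and was not called (limma adjusted p = 0.0827), but passed after quantile normalization (0.0492), in TPM (0.0487) and without follicular replicate 2 (0.0479).

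The ring subunits shared their highest and lowest ovaries, while the ovaries between them changed places. Luteal replicate 2 was the highest luteal ovary in 8 of 8 subunits and luteal replicate 3 the lowest in 8 of 8. Follicular replicate 2 was the highest of its phase in 7 of 8 and follicular replicate 5 the lowest in 8 of 8. All subunits of an ovary come from the same library and its scaling, and whether the shared extremes reflect the library was not tested.

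**Figure D5:**
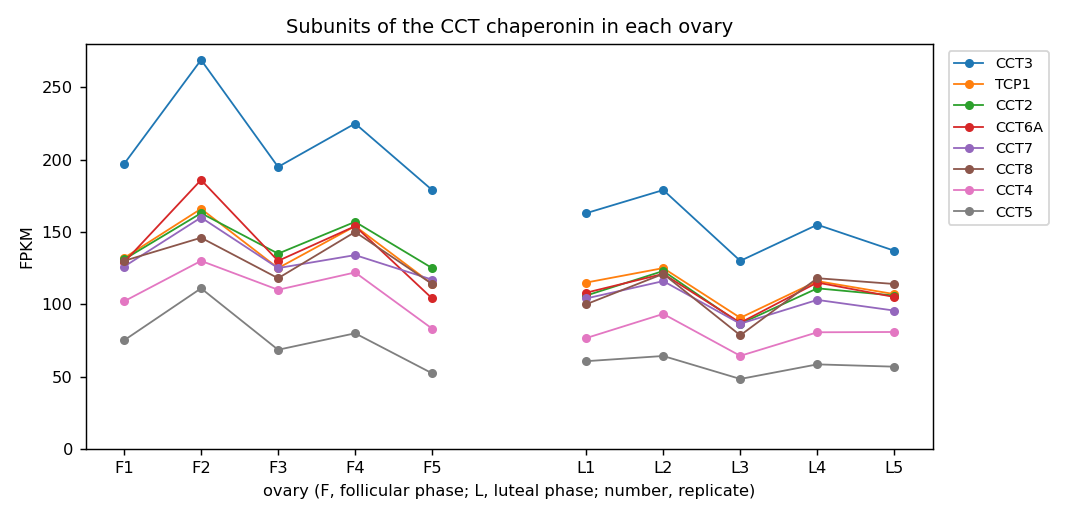
FPKM of the 8 CCT ring subunits in each of the 5 follicular and 5 luteal ovaries, with lines joining the ovaries of a phase for each subunit. The subunits of the ring have the same lowest ovary in each phase, with lower means in the luteal phase in 8 of 8. CCT6B is not drawn.

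HSP90 and its cytosolic co-chaperones take over proteins from HSP70, among them steroid receptors. Of 21 such genes, limma called 0 higher and 10 lower (1 and 13 at an unadjusted p under 0.05), with a median of -0.31. The 10 are 47.6% of the list, beside 43.7% of all genes called and 27.8% called lower. HSP90AB1, the constitutive HSP90, had 355, 388, 294, 357 and 356 FPKM in the luteal phase. Its follicular values were 601, 680, 552, 583 and 490. The groups were well apart, with a difference of -0.73 (limma adjusted p = 0.000308). HSP90AA1, the inducible form, differed by -0.38 (limma adjusted p = 0.00874, but 0.0732 after the shift to a common median). The ratio of HSP90AB1 to HSP90AA1 was 0.748 to 0.847 in luteal ovaries and 0.923 to 1.12 in follicular ovaries (log2 difference -0.35, two-sided exact permutation p = 0.00794). That ratio was chosen after the values were seen, so its p is no independent support. FKBP4, the immunophilin of the progesterone receptor complex, was lower, at -0.68 (limma adjusted p = 0.00151), ST13, which binds HSP70, at -0.50 and AHSA1, the activator of the HSP90 ATPase, at -0.54. STIP1 (HOP), which links HSP70 to HSP90, was lower, at -0.42 with an adjusted p of 0.0486 in limma, and 2 of the 10 fits with 1 ovary left out called it. After the shift to a common median 5 of the 21 were called lower and 1 higher, and in TPM 6 and 2.

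Of 13 prefoldin and tubulin folding genes, which feed and follow CCT, 3 were higher and 1 lower, with a median of -0.08 that turned to 0.0076 after the median shift and 0.0213 in TPM. PFDN5, a prefoldin subunit, was lower, at -0.45 (limma adjusted p = 0.00285), and the tubulin cofactors TBCB, TBCD and TBCE were higher by 0.34, 0.51 and 0.57. HSF1, the master regulator of the heat shock response, was at 3.67 ± 0.579 FPKM in luteal ovaries and 4.36 ± 0.701 in follicular ovaries (SD, n = 5 each, difference -0.24, limma adjusted p = 0.2). HSF2 was lower, at -0.24 (limma adjusted p = 0.00602), and not called after the shift to a common median (0.0826) or in TPM (0.13). HSF4 was higher by 0.81 (limma adjusted p = 0.0458), with adjusted p up to 0.106 in limma when 1 ovary was left out. Its call was lost without filter, without trend, without follicular replicate 1, 2 or 4 and without luteal replicate 1, 3, 4 or 5.

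At transcript level 111 of the 137 chaperone transcripts were tested and 25 called, 8 higher and 17 lower, beside 17.3% of all transcripts. They belonged to 22 genes, of which 20 were also called as genes. DNAJA4 and HSPA14 were called by a transcript alone. In DNAJA4, a cytosolic partner of HSP70, the main transcript was lower in the luteal phase, at -0.54 (limma adjusted p = 0.0286), and the second transcript went from 0.987 ± 0.944 FPKM in the follicular phase to 2.35 ± 0.543 in the luteal phase (SD, n = 5 each, limma adjusted p = 0.118). The main transcript held 65.1% of the gene's FPKM in luteal ovaries and 86.7% in follicular ovaries. Of the called genes, 10 had no called transcript, TCP1, DNAJC24 and DNAJB2 among them.

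Single ovaries stood apart in the chaperone genes. Follicular replicate 2 was the highest of its phase in 31 of 69 genes and follicular replicate 5 the lowest in 31 of 69, where over all genes these shares were 24.1% and 16.2%. Luteal replicate 3 was the lowest of its phase in 38 of 69 and luteal replicate 2 the highest in 27 of 69, where the shares over all genes were 24.5% and 20.7%. Follicular replicate 5 was also the highest of its phase in 11 of 12 immediate early genes (28.3% over all genes), genes that respond within minutes to a stimulus. The part of these ovaries in the results was followed by leaving them out, and without both follicular replicates 2 and 5 limma called 34 of the 69 genes, 11 higher and 23 lower.

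The labelled phases matched their markers. Of 9 corpus luteum genes 8 were higher in the luteal phase (STAR by 7.35, OXT by 10.26) and 1 was lower, with a summed FPKM of 11632 to 14760 against 364.1 to 544.02. Of 8 granulosa cell genes 4 were lower and of 9 oocyte genes 5 (8 without follicular replicate 4), with 0 higher in either list (also 0 at an unadjusted p under 0.05 in limma). Of 8 stroma genes 2 were higher and 3 lower, of 10 leukocyte genes 3 were higher and 1 lower (0 after the median shift and in TPM), and of 6 tested motile cilium genes 1 was higher and 3 lower. Immediate early genes gave 1 higher and 3 lower of 12, and 3 and 3 without follicular replicate 5, where their median went from -0.23 to -0.05. The part of these cell types in the chaperone results was not tested.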

How the data were processed

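Total RNA of each ovary was depleted of ribosomal RNA and sequenced from both ends with its strand kept, 1 library per ovary. The authors aligned reads with HISAT2 2.0.4, assembled transcripts with StringTie 1.3.1 and computed the deposited FPKM per transcript and ovary with Cuffdiff 2.1.1, without pooling ovaries. The genome build is not given in the sources used here, and the study gives reads only as a sum over all libraries, so the depth of each ovary is unknown and precision is the spread between ovaries. FPKM summed to 452508 to 503276 per luteal and 492324 to 540124 per follicular ovary.

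Protein-coding FPKM were summed by symbol and tested as described with limma 3.58.1 (lmFit, eBayes with trend, two-sided) in R 4.3.3. Ratios, figures and summaries used Python 3.11.15 with pandas 2.3.3, scipy 1.17.1 and matplotlib 3.10.9. Symbols, neighbours and synonyms came from the goat RefSeq gene table, through which CYP11A1 and lysozyme were also matched, and HSD3B1 and OOEP stayed unmatched. On simulated data 72.0% of 2-fold and 94.0% of 4-fold changes in 200 of 15359 genes were recovered, with 6.21% false calls. Those genes were drawn independently and few were changed, whereas 43.7% of all genes were called in the data. No change under 2-fold was simulated, the size of every called member but HSPD1, so the recovery of such changes is not known. The members, lists and tests were chosen with earlier results of these data known. Named genes are core members set by list, the largest non-overlapping changes per compartment and the 2 largest called changes per related list, and further members were named after their values were seen. Alternatives were other pseudocounts, filters, scalings, thresholds, a fit without trend, a replicate block, calls per transcript and fits without single ovaries. Tables that repeat the same transcripts were not used.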

Additional observations from a re-analysis of the deposited data

Results flagged for a closer look

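In 244 groups of 5 ovaries (each tested chaperone gene and the related genes screened with them, in each phase), 16 values stood apart by Dixon's test, which by chance flags about 1 in 20 groups. Of these, 9 were in follicular replicate 2. It was high for DNAJA2 (65.2 FPKM, the other follicular ovaries 53.7 to 56.6), DNAJA3 (20.9), DNAJC15 (26.0), DNAJC21 (32.0), HSPA14 (37.0), HSPA9 (122), HSPBP1 (10.2) and HERPUD1 (81.0), and low for DNAJC1 (7.14, the others 8.72 to 9.14). Luteal replicate 1 was high for DNAJC1 (11.4 FPKM, the others 9.07 to 9.63) and for TXNDC5 (65.1, the others 53.8 to 55.2). Follicular replicate 1 was high for DNAJC22 (0.902 FPKM, the others 0.372 to 0.505). Follicular replicate 5 was high for the immediate early genes FOSB (36.6 FPKM, the others 3.69 to 9.23) and JUN (332, the others 102 to 142), for PPP1R15A (48.5, the others 22.4 to 25.7) and for the oocyte gene NLRP5 (0.786, the others 0.250 to 0.333).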

How the results depend on the processing

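In all 21 fits that kept the threshold (the reported one, 9 with another setting, 10 leave-one-out and 1 with 2 ovaries left out), limma called 14 of the 30 called genes: DNAJB1, DNAJB2, DNAJB9, DNAJB14, DNAJC9, DNAJC12, DNAJC13, DNAJC24, HSPA4L, HSPA6, HSPB1, HSPB2, HSPD1 and HSPE1. With the threshold at 0.01, 16 genes were called (10 lower, beside 26.2% of all genes called), 12 of them cytosolic (2 higher, 10 lower) and 2 in the ER (0 lower). After the shift to a common median the lower calls were 8 in all and 8 in the cytosol (14 cytosolic calls), and the ER had 4 higher and 0 lower. In TPM they were 12 and 12, and the ER again had 4 and 0. The cytosolic median was -0.145 and -0.131 in these settings, and -0.323 (without follicular replicate 5) to -0.21 with 1 ovary left out. By transcripts, 5 genes were higher (1 cytosolic) and 1 ER gene lower. ER lower calls fell to 1 with a pseudocount of 1, without filter and with a minimum FPKM of 0.5, and ranged from 1 to 2 with 1 ovary left out, where ER higher calls ranged from 2 to 4. Mitochondrial calls ranged from 2 to 6 in these fits (2 to 4 higher, 0 to 2 lower), the most without follicular replicate 2. A mitochondrial lower call (1) came with a pseudocount of 0.01, a minimum FPKM of 0.5, no trend, the replicate block and, chosen after seeing the data, 3 follicular ovaries (4 mitochondrial calls).

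Signs of small, uncalled differences turned for DNAJA2 (0.0104 median shift, 0.0242 TPM), DNAJC19 (0.00545, 0.0192), CALR (0.0443, 0.0582) and PDIA4 (0.0622, 0.076). They turned after quantile normalization for DNAJC16 (0.000204, and 0.00582 in TPM), HSPA8 (0.00422) and XBP1 (-0.0138). Without single ovaries they turned for DNAJB11 (range -0.028 to 0.181), DNAJC30 (-0.25 to 0.0172), HSPA2 (-0.0866 to 0.0879), CALR (-0.11 to 0.0352) and PDIA4 (-0.0967 to 0.026), and with 3 follicular ovaries for DNAJB4 (-0.0163) and HSPA2 (-0.061). The cause was not tested. Over all members 23 to 33 genes were called with 1 ovary left out, the fewest without follicular replicate 4.

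Equal replicate numbers did not pair the ovaries: correlations of their deviations were 0.0258 to 0.199, and 2 of 5 ovaries correlated best with their own number. With a replicate block 33 genes were called, 9 higher and 24 lower, adding CCT5, CCT6A, CCT8 and DNAJC4 and losing DNAJC7. The depth of each ovary is unknown, so the counting error of low genes such as DNAJC22, HSPB2 and CCT6B is not given.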
